A study of Mus musculus with 4 samples.

Results

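The matrix metalloproteinase genes Mmp2, Mmp3, Mmp8, Mmp9, Mmp10, Mmp12, Mmp13, Mmp14 and Mmp19 were followed in mouse abdominal aorta after CaPO4. They were taken as every probe that is not a control and whose gene name on the array is one of these 9 symbols, which gave 13 of 56605 probes and 9 of 37074 gene names. Matrix metalloproteinases are zinc-dependent enzymes that cut collagens, elastin, proteoglycans and other proteins of the extracellular matrix. Most are secreted as inactive proenzymes, are switched on when another protease removes the propeptide, and are held in check by tissue inhibitors of metalloproteinases. In the artery wall they are known for the breakdown of elastic lamellae in aneurysm, where smooth muscle cells, fibroblasts and infiltrating macrophages and neutrophils make different members.

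The arrays came from 2 groups of male mice, 12 weeks old, whose abdominal aortic tissue was taken 4 weeks after the CaPO4 operation: SR-A1-/- animals (2 arrays) and Wild Type animals (2 arrays). SR-A1 is a scavenger receptor of macrophages encoded by Msr1; strain and deleted allele are not named in the sources used here, and both groups had CaPO4, so no values of an unoperated aorta stand beside these. Total RNA was hybridised to one-colour (Cy3) Agilent mouse arrays, with 1 sample on each. Nothing in the labels ties each array to an animal of its own, and a p-value here therefore weighs a difference against the spread among these 4 samples, which may be technical. Unless stated otherwise, a value is the log2 processed signal of a probe relative to the 75th percentile of its array, and a difference is the mean of the arrays labelled SR-A1-/- minus the mean of those labelled wild type, ± the standard error from limma (n = 2 each).

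Msr1 went against the labels. Its probe with the higher mean read -1.26 and -2.09 on the arrays labelled SR-A1-/- 1 and 2, against -5.30 and -2.10 on wild type 1 and 2 as labelled. On wild type 1 alone it was not well above background. Another probe, at a different position of the transcript and also tested, read -1.50 and -1.38 on SR-A1-/- 1 and 2. On wild type 1 and 2 it read -6.40 and -2.12. It too was not well above background on wild type 1 alone. Both positions were thus read on both arrays labelled SR-A1-/-. A probe outside the deleted stretch would check nothing, and the stretch is not known here, so every direction below goes by the labels. The 75th percentile of the signal was 245 and 133 units on the arrays labelled SR-A1-/-, against 132 and 220 units on those labelled wild type, so each label holds 1 array of higher and 1 of lower signal. All 8 smooth muscle markers examined were tested, and markers of skeletal muscle and adipocytes, which are not cells of the vessel wall's media, were read too, at the sums given further on. Across 22497 tested genes, 0 had a limma adjusted p under 0.05 (0%), and 1416 had an unadjusted p under 0.05 (6.29%), with a median difference of -0.0057.

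Of the 9 members, 5 lie in one cluster of 10 matrix metalloproteinase genes that spans 427.1 kb of chromosome 9 (GRCm38). The window of 250 bases before the transcription start was read for the 6 members with an entry in the RefSeq promoter table of GRCm38.p6; Mmp2, Mmp9 and Mmp19 had none. The classical AP-1 element, TGAGTCA or its reverse complement TGACTCA, is the motif through which Fos and Jun proteins are known to act on several of these genes. It was found in the windows of 4 members, Mmp13, Mmp12, Mmp3 and Mmp10, and in 4.46% of 32851 promoter windows searched the same way. The letters TATAAA, searched on both strands, were found in 3 of the members, Mmp13, Mmp3 and Mmp10, and in 12.4% of all windows. The 120 bases before the start are printed for these 4 genes because they carry the shared element, and for Mmp8, their neighbour without it. All are on the plus strand, and capitals mark the AP-1 letters and TATAAA.
Mmp13, chr9:7272394-7272513: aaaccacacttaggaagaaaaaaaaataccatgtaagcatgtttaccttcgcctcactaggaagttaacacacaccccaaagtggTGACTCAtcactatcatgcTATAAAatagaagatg
Mmp12, second listed start, chr9:7347254-7347373: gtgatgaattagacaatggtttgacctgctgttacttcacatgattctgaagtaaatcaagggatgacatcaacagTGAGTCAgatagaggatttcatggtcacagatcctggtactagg
Mmp3, chr9:7445702-7445821: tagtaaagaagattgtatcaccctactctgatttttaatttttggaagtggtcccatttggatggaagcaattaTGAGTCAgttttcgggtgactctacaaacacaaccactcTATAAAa
Mmp10, chr9:7502222-7502341: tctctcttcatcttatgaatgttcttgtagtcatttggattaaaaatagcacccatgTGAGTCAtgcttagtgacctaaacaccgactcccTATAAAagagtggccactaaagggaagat
Mmp8, chr9:7558309-7558428: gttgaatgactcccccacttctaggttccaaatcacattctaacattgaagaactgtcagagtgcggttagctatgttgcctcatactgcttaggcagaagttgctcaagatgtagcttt
The AP-1 letters began 35 bases before the start in Mmp13, 44 in Mmp12, 46 in Mmp3 and 63 in Mmp10. The other listed start of Mmp12 held neither motif in its window, nor did the window of Mmp14. A match of letters is not a measured binding site.

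The members with several probes are Mmp12 with 3, Mmp9 with 2 and Mmp19 with 2. The 3 probes of 60 bases printed here are shown because they read Mmp12 and Mmp9 at positions upstream of another probe of the same transcript.
Mmp12, transcript NM_008605 from base 735, chr9:7352935-7352994 (mm9): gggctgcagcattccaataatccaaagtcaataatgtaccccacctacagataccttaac
Mmp12, NM_008605 from base 1062, chr9:7354810-7355325 (mm9): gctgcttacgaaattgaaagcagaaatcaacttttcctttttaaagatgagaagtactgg
Mmp9, transcript NM_013599 from base 2065, chr2:164779091-164780300 (mm9): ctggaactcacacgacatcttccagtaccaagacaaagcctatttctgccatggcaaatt
The probe from base 1062 of Mmp12 spans 516 bases of the genome and that from base 2065 of Mmp9 spans 1210, so both run across an intron. Exon and untranslated-region annotation of mm9 was not used here.

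Of the 9 members, 7 were tested, meaning that at least 1 of their probes was well above background on 2 or more of the 4 arrays. Mmp2, Mmp3 and Mmp8 were higher on both arrays labelled SR-A1-/- than on both labelled wild type, which is 3 of 7 tested members beside 16.1% of all tested genes. Mmp8 was well above background on neither wild-type array and entered the test only through the arrays labelled SR-A1-/-, and without it the count was 2 of 6. Mmp9 was the 1 member lower on both, beside 13.7% of all tested genes. Mmp12, Mmp14 and Mmp19 overlapped between the labels, and Mmp10 and Mmp13 were not tested. Of the non-overlapping members, Mmp2 and Mmp3 were at least 2-fold higher (3.96% of all tested genes) and 0 members were at least 2-fold lower (2.44%). The count of 2 was 1 without SR-A1-/- 2 or without wild type 1, and 3 without wild type 2, and 1 member, Mmp12, was at least 2-fold lower without wild type 1. In limma 0 of the 7 passed an adjusted p of 0.05, and 2, Mmp2 and Mmp9, had an unadjusted p under 0.05. The median difference over the 7 was 0.42, which is the value of Mmp8 itself, and 0.44 over the 6 without it, against -0.0057 over all tested genes. Both medians are descriptions of few genes.

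**Figure D1:**
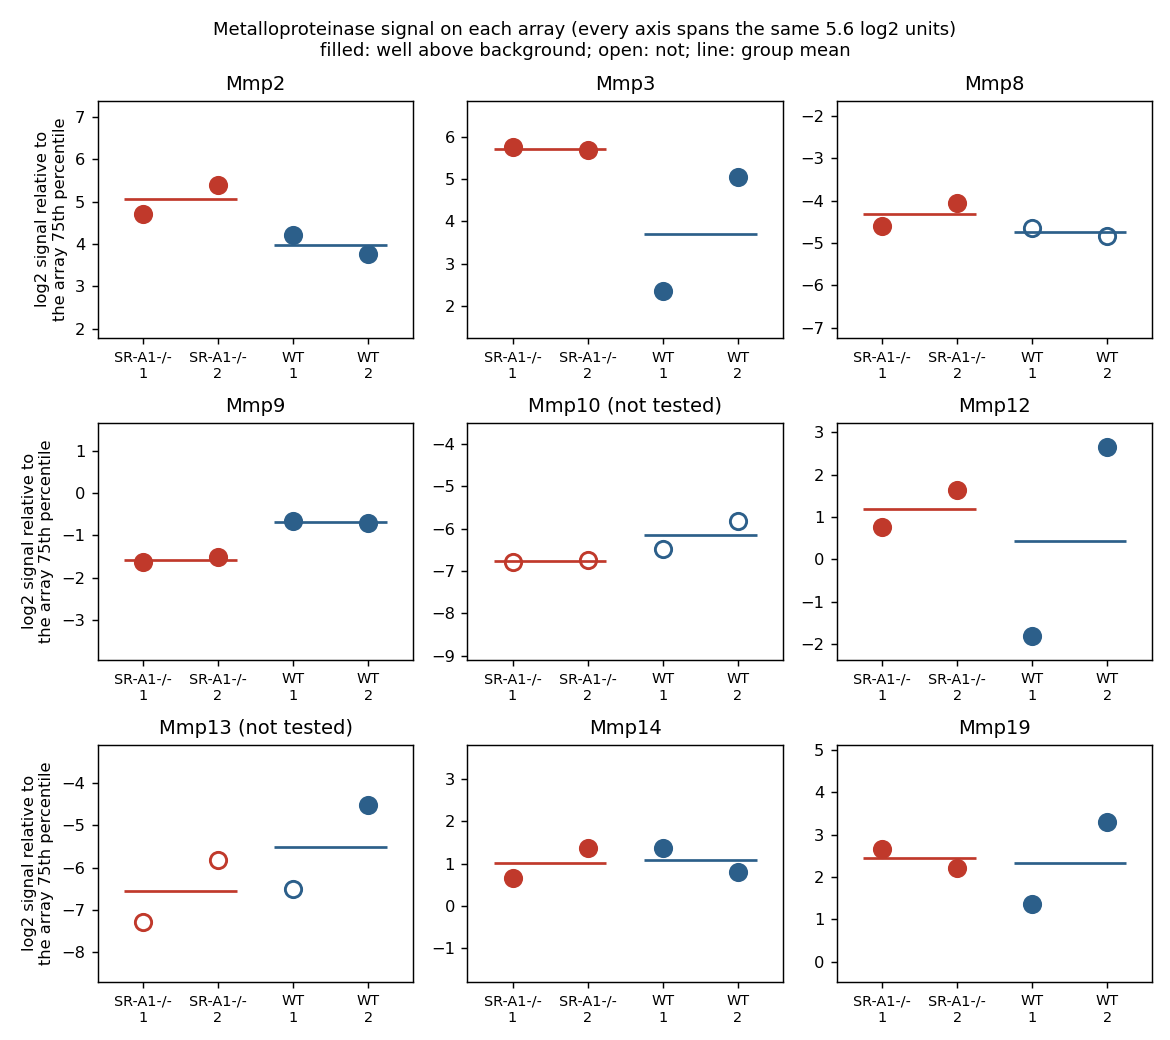
Log2 signal relative to the array's 75th percentile (y axis) of each of the 9 members on each of the 4 arrays, the arrays labelled SR-A1-/- left of those labelled wild type (WT), with open symbols where the probe was not well above background and bars at group means. Mmp2, Mmp3, Mmp8 and Mmp9 do not overlap between the labels, with Mmp8 not well above background on either wild-type array. Mmp3, Mmp12 and Mmp19 are lowest on wild type 1, and Mmp10 is dim on all 4 arrays.

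The gelatinases Mmp2 and Mmp9 cut denatured collagen, type IV collagen and elastin, and here they lay in opposite directions from wild type. Mmp2 (NM_008610 from base 2561, chr8:95376840-95376899, mm9), made chiefly by mesenchymal cells, read 4.71 and 5.40 on the arrays labelled SR-A1-/-, against 4.21 and 3.77 on those labelled wild type. Both SR-A1-/- values lay above both wild-type values, by a difference of 1.07 ± 0.38, which is 2.10-fold, with a 95% interval of 0.10 to 2.04 and a limma adjusted p of 0.733. In bulk tissue, more cells that make a transcript and more transcript per cell cannot be told apart. Within the pair of higher-signal arrays the difference was 0.94, and within the pair of lower-signal arrays it was 1.20.

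Mmp9, the gelatinase of neutrophils and macrophages, is read by 2 probes that gave the same direction. Its brighter probe, from base 2065, read -1.62 and -1.52 on the arrays labelled SR-A1-/-, against -0.65 and -0.72 on those labelled wild type. The arrays of each label lay close together and the labels did not overlap. The difference was -0.88 ± 0.27, or 0.542-fold, with a 95% interval of -1.59 to -0.18 and a limma adjusted p of 0.666. The probe from base 2444 (chr2:164780620-164780679, mm9) read -2.75 and -2.90 on the arrays labelled SR-A1-/-, against -1.98 and -0.91 on those labelled wild type. It also separated the labels, with a difference of -1.38 ± 0.43 and an adjusted p of 0.686 in limma over all tested probes. Over the 14 other settings tried, differences ran from 0.73 to 1.42 for Mmp2 and from -1.13 to -0.53 for Mmp9. Leaving out 1 array cannot turn the sign where the labels do not overlap, and some settings change only the error. The kept direction of both members is therefore no further support.

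The stromelysins Mmp3 and Mmp10 cut proteoglycans, fibronectin and laminin and activate other proenzymes of the family. Mmp3 (NM_010809 from base 1576, chr9:7455751-7455810, mm9) read 5.75 and 5.68 on the arrays labelled SR-A1-/-, against 2.34 and 5.04 on those labelled wild type. The labels did not overlap, yet the low value of wild type 1 made most of the difference of 2.02 ± 0.90, or 4.05-fold (95% interval -0.30 to 4.34, limma adjusted p = 0.864). The arrays labelled SR-A1-/- differed from each other by 0.071, whereas those labelled wild type differed by 2.70, or 6.49-fold, a gap whose size ranked at the 98.4th percentile of all tested genes. The difference was 0.71 within the higher-signal pair and 3.33 within the lower-signal pair. Without wild type 1 it was 0.67, and without wild type 2 it was 3.37 with a limma adjusted p of 0.00876, where the lone wild-type array is assumed to vary as the other label's do.

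Mmp10 (NM_019471 from base 1502, chr9:7510011-7510070, mm9) was not well above background on any of the 4 arrays, at processed signals of 2.23 and 1.25 units on those labelled SR-A1-/- and 1.48 and 3.91 units on those labelled wild type. No difference is given for it.

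The collagenases Mmp8 and Mmp13, which cut the triple helix of fibrillar collagen, lay near or below background. Mmp8 (NM_008611 from base 1934, chr9:7567968-7568026, mm9), stored in neutrophil granules, read -4.59 and -4.06 on the arrays labelled SR-A1-/- and -4.66 and -4.82 on those labelled wild type, where it was not well above background on either. It passed the filter only through the arrays labelled SR-A1-/-, so its upward direction is no support for a difference. The difference as measured was 0.42 ± 0.32, with a 95% interval of -0.42 to 1.25 that includes 0. Each wild-type array was also set at the higher of its lowest signal called above background and the probe's own value. The bound from this was 1.16-fold for the SR-A1-/- label over wild type. That bound has no error and rests on the same filter, so it is no support for a difference either. With normexp background correction, which fits the background instead of using the scanner's own subtraction, the difference was -0.04.

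Mmp13 (NM_008607 from base 2103, chr9:7282762-7282821, mm9), the main interstitial collagenase of mice, was well above background on wild type 2 alone. Its processed signals were 1.58 and 2.35 units on the arrays labelled SR-A1-/-, against 1.45 and 9.65 units on those labelled wild type. No fold is given, because the bound for it is under 1.

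Mmp12, the macrophage elastase, varied more than any other member between the arrays labelled wild type. Its brightest probe, from base 1704 (chr9:7358559-7358618, mm9), read 0.76 and 1.64 on the arrays labelled SR-A1-/-, against -1.80 and 2.66 on those labelled wild type. Both SR-A1-/- values lay between the wild-type values, which stood 4.47 apart, or 22.1-fold, a gap at the 99.7th percentile of all tested genes. The difference between the labels was 0.77 ± 1.47 (95% interval -3.03 to 4.57, limma adjusted p = 1). It was -1.91 within the higher-signal pair and 3.44 within the lower-signal pair. Without wild type 1 it turned to -1.47, and without wild type 2, which leaves the low wild type 1 alone, it was 3.002.

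The 2 probes of Mmp12 printed above were tested too and gave the same order of the arrays as the probe from base 1704. The probe from base 735 read -2.24 and -1.20 on the arrays labelled SR-A1-/-, against -4.17 and -0.11 on those labelled wild type. That from base 1062 read -2.03 and -0.87 on the arrays labelled SR-A1-/-, against -4.48 and 0.02 on those labelled wild type. On wild type 1 alone neither was well above background, and their differences were 0.42 ± 1.35 and 0.78 ± 1.49. So the low value on wild type 1 and the high value on wild type 2 stood in 3 probes at separate positions of the same transcript.

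**Figure D2:**
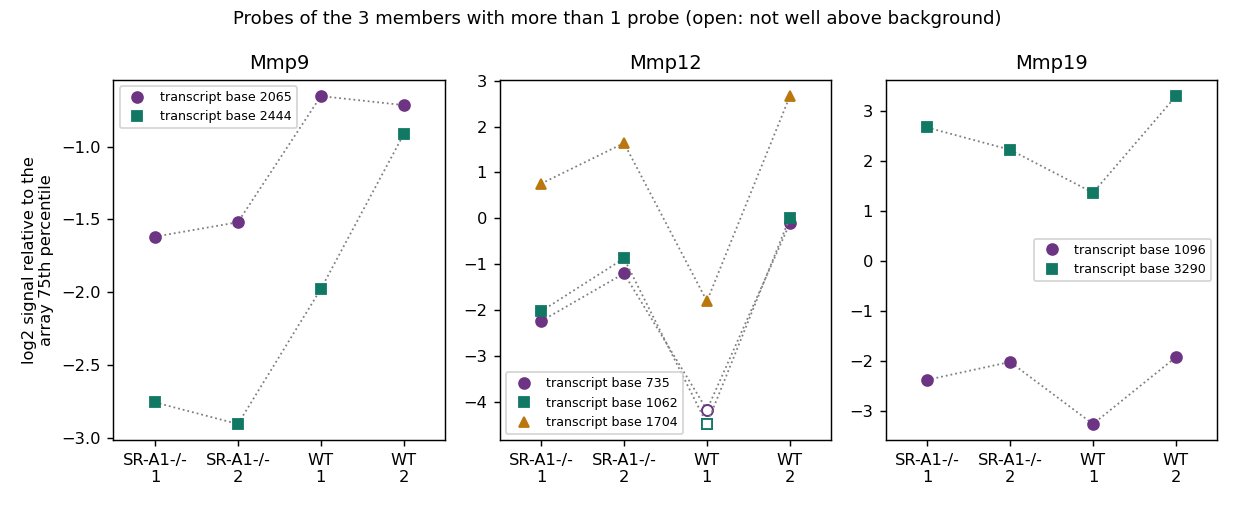
Log2 signal relative to the array's 75th percentile (y axis) on the 4 arrays, those labelled SR-A1-/- left of those labelled wild type (WT), for each probe of Mmp9, Mmp12 and Mmp19, with lines joining the values of 1 probe and open symbols where it was not well above background. The 3 probes of Mmp12 all run lowest on wild type 1 and highest on wild type 2, and both probes of Mmp9 are lower on the arrays labelled SR-A1-/-.

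Mmp14, the membrane-anchored protease that activates pro-Mmp2 at the cell surface, differed little between the labels. Its probe (NM_008608 from base 1596, chr14:55058775-55058834, mm9) read 0.65 and 1.36 on the arrays labelled SR-A1-/-, against 1.37 and 0.79 on those labelled wild type. The labels overlapped, the difference was -0.073 ± 0.40, and its 95% interval of -1.10 to 0.95 leaves room for about 2-fold either way. Within the higher-signal pair it was -0.14 and within the lower-signal pair -0.0064. It turned to 0.28 without SR-A1-/- 1 and to 0.21 without wild type 1.

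Mmp19 (NM_021412), a secreted member known for cleaving basement membrane proteins, also overlapped. The probe from base 3290 (chr10:128237761-128237820, mm9) read 2.66 and 2.22 on the arrays labelled SR-A1-/-, against 1.36 and 3.29 on those labelled wild type. As for Mmp12, both SR-A1-/- values lay between the wild-type values, which stood 1.93 apart, or 3.80-fold, at the 96.0th percentile of all tested genes. The difference was 0.12 ± 0.68 (95% interval -1.65 to 1.88, limma adjusted p = 1). The probe from base 1096 (chr10:128235282-128235341, mm9) read -2.37 and -2.01 on the arrays labelled SR-A1-/-, against -3.25 and -1.92 on those labelled wild type, with a difference of 0.39 ± 0.51. Both probes had wild type 1 lowest and wild type 2 highest. Without wild type 1 the difference at the brighter probe turned to -0.85, and without SR-A1-/- 1 to -0.11.

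**Figure D3:**
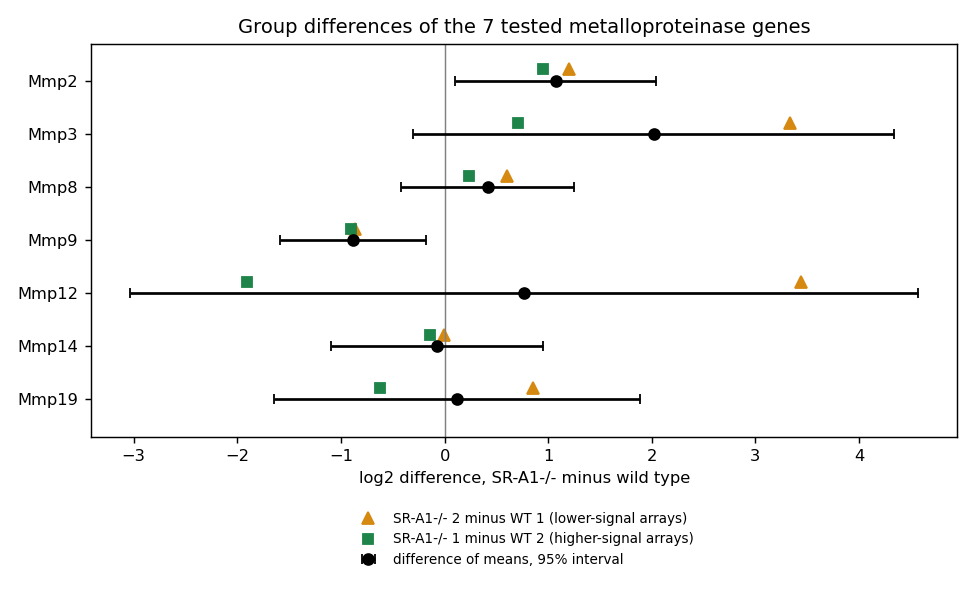
Log2 difference of the arrays labelled SR-A1-/- minus those labelled wild type (x axis) for the 7 tested members, with bars for the 95% interval from limma. Separate symbols show the pair of higher-signal arrays and the pair of lower-signal arrays. Both pairs of Mmp2, Mmp3, Mmp8, Mmp9 and Mmp14 fall on one side of 0, whereas those of Mmp12 and Mmp19 fall on opposite sides. For Mmp2, Mmp3, Mmp8 and Mmp9 this follows from the labels not overlapping and adds nothing to it.

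Markers of other cell types differed between the same arrays. The summed linear signal of the 12 macrophage markers, relative to the 75th percentile, was 286.6 and 310.7 on the arrays labelled SR-A1-/-, against 174 and 383 on those labelled wild type. The median over the 12 was 3.38 and 2.74 on the arrays labelled SR-A1-/-, against 1.13 and 3.03 on those labelled wild type, so wild type 1 was lowest by both measures, as for Mmp12, whereas the order of the other 3 arrays depended on the measure. All 12 were tested, with 5 higher and 1 lower without overlap and a median difference of 0.98. Of all tested genes, 16.1% were higher and 13.7% lower without overlap, and these shares stand beside each marker list below too. Cd163, the haemoglobin scavenger receptor, differed by 2.83 ± 0.45 (limma adjusted p = 0.272) and Fcgr1, an immunoglobulin receptor, by 1.87 ± 0.47 (limma adjusted p = 0.525). The median difference of the macrophage list was -0.15 within the higher-signal pair and 1.56 within the lower-signal pair. Osteoclast markers, 7 of 8 tested, summed to 93.8 and 112.2 on the arrays labelled SR-A1-/-, against 59.3 and 132.1 on those labelled wild type. Their median was 0.44 and 0.32 on the arrays labelled SR-A1-/-, against -1.57 and 1.55 on those labelled wild type, with wild type 1 lowest and wild type 2 highest by both measures. Dcstamp, a fusion receptor of osteoclasts, differed by 3.42 ± 1.86 and was not well above background on wild type 1. Calcr, the calcitonin receptor that defines mature osteoclasts, was not tested. The part of these cells in the values of Mmp12, Mmp3 and Mmp19 was not tested.

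Neutrophil markers, 7 of 10 tested, summed to 114.5 and 192.1 on the arrays labelled SR-A1-/-, against 192.6 and 136.2 on those labelled wild type, a sum made almost wholly by Csf3r. Their median was -2.45 and -2.50 on the arrays labelled SR-A1-/-, against -2.83 and -1.37 on those labelled wild type. None of the 7 was free of overlap, and the alarmin S100a9 read -1.33 and -2.50 on the arrays labelled SR-A1-/-, against -2.83 and 1.63 on those labelled wild type. The granule genes Ngp and Ltf were not well above background on any array. The part of neutrophils in the value of Mmp9 was not tested.

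Skeletal muscle markers, all 8 tested, summed to 152.7 and 259.6 on the arrays labelled SR-A1-/-, against 1341 and 403 on those labelled wild type, with 1 higher and 5 lower without overlap. Smooth muscle markers summed to 1078 and 1306 on the arrays labelled SR-A1-/-, against 1887 and 1373 on those labelled wild type, with 0 higher and 5 lower of 8. Adipocyte markers stood at 30.6 on SR-A1-/- 2, against 606 on SR-A1-/- 1 and 388.6 and 664.6 on the arrays labelled wild type. Fibroblast markers summed to 1264 and 1956 on the arrays labelled SR-A1-/-, against 1862 and 1120 on those labelled wild type, sums led by collagen genes and Dcn. These sums overlapped between the labels. Of the 8, 2 were higher without overlap, beside 16.1% of all tested genes, and 0 lower, beside 13.7%. Their median difference was 0.29, and the part of fibroblasts in the value of Mmp2 was not tested. T cell markers, 6 of 8 tested, had 4 higher and 0 lower without overlap and a median difference of 0.95, at 0.57 within the higher-signal pair and 0.96 within the lower-signal pair. Zap70, a kinase of the T cell receptor pathway, differed by 1.72 ± 0.29 and Cd3g, a subunit of that receptor, by 1.31 ± 0.36. Of 6 B cell markers 1 was higher and 1 lower without overlap: Jchain, the joining chain of secreted antibodies, differed by 2.22 ± 0.37 and Ms4a1, the B cell surface protein CD20, by -0.90 ± 0.42. No marker of any list had a limma adjusted p under 0.05, and the part of tissue make-up in the values of the members was not tested.

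Among 14 other matrix metalloproteinase genes, 7 were tested and 0 passed an adjusted p of 0.05 in limma. Mmp28 (epilysin) and Mmp11 (stromelysin 3) were higher on both arrays labelled SR-A1-/-, by 0.68 ± 0.28 and 0.96 ± 0.45. The membrane-anchored members Mmp15, Mmp16 and Mmp17 were lower on both, by -0.59 ± 0.28, -0.71 ± 0.31 and -0.68 ± 0.30. Mmp11 and Mmp15 are named here after their values were seen. None of the 7 reached a 2-fold difference without overlap, and their median difference was 0.28. Shares of all tested genes without overlap were 16.1% higher and 13.7% lower, and they stand beside the lists that follow too.

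Of 8 inhibitor genes 5 were tested, 0 past an adjusted p of 0.05 in limma, with a median difference of 0.25. Timp3, the inhibitor that binds to the matrix, read 6.07 and 6.57 on the arrays labelled SR-A1-/-, against 5.69 and 5.88 on those labelled wild type, a difference of 0.53 ± 0.32 without overlap. Timp4, the inhibitor best known from heart and vessels, read 1.47 and 0.81 on the arrays labelled SR-A1-/-, against 1.501 and 1.90 on those labelled wild type, a difference of -0.56 ± 0.37. These are the 1 higher and the 1 lower inhibitor without overlap. Timp1, the soluble inhibitor that binds pro-Mmp9, differed by 0.57 ± 0.41, and Timp2, which joins pro-Mmp2 to Mmp14, by 0.25 ± 0.31. Reck, a membrane-anchored inhibitor, differed by -0.13 ± 0.32, and these 3 overlapped between the labels. A2m, Pzp and Tfpi2 were not well above background on any array.

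Of 11 genes of activation by serine proteases 9 were tested, with 3 higher and 2 lower without overlap and a median difference of -0.14. Plau, the urokinase that makes plasmin, an activator of several proenzymes, read 2.002 and 1.17 on the arrays labelled SR-A1-/-, against 0.15 and 0.94 on those labelled wild type. It was the 1 gene of that list at least 2-fold higher without overlap, beside 3.96% of all tested genes. Its difference was 1.04 ± 0.45 (limma adjusted p = 0.857). Serpine2, an inhibitor of urokinase and thrombin, differed by -0.73 ± 0.37 and Klkb1, plasma prekallikrein, by 0.49 ± 0.30.

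All 13 matrix substrates were tested, with 1 higher and 5 lower without overlap and a median difference of -0.21. Eln, which encodes tropoelastin, read 3.27 and 3.27 on the arrays labelled SR-A1-/-, against 4.90 and 4.33 on those labelled wild type. Both SR-A1-/- values lay below both wild-type values, by -1.35 ± 0.33 with a limma adjusted p of 0.4997. Col4a1, of basement membrane collagen, differed by -0.75 ± 0.36, and Lum, the small proteoglycan lumican, by 0.58 ± 0.29. Smooth muscle markers, given above, were lower on the same arrays as Eln, and their part in its value was not tested.

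**Figure D4:**
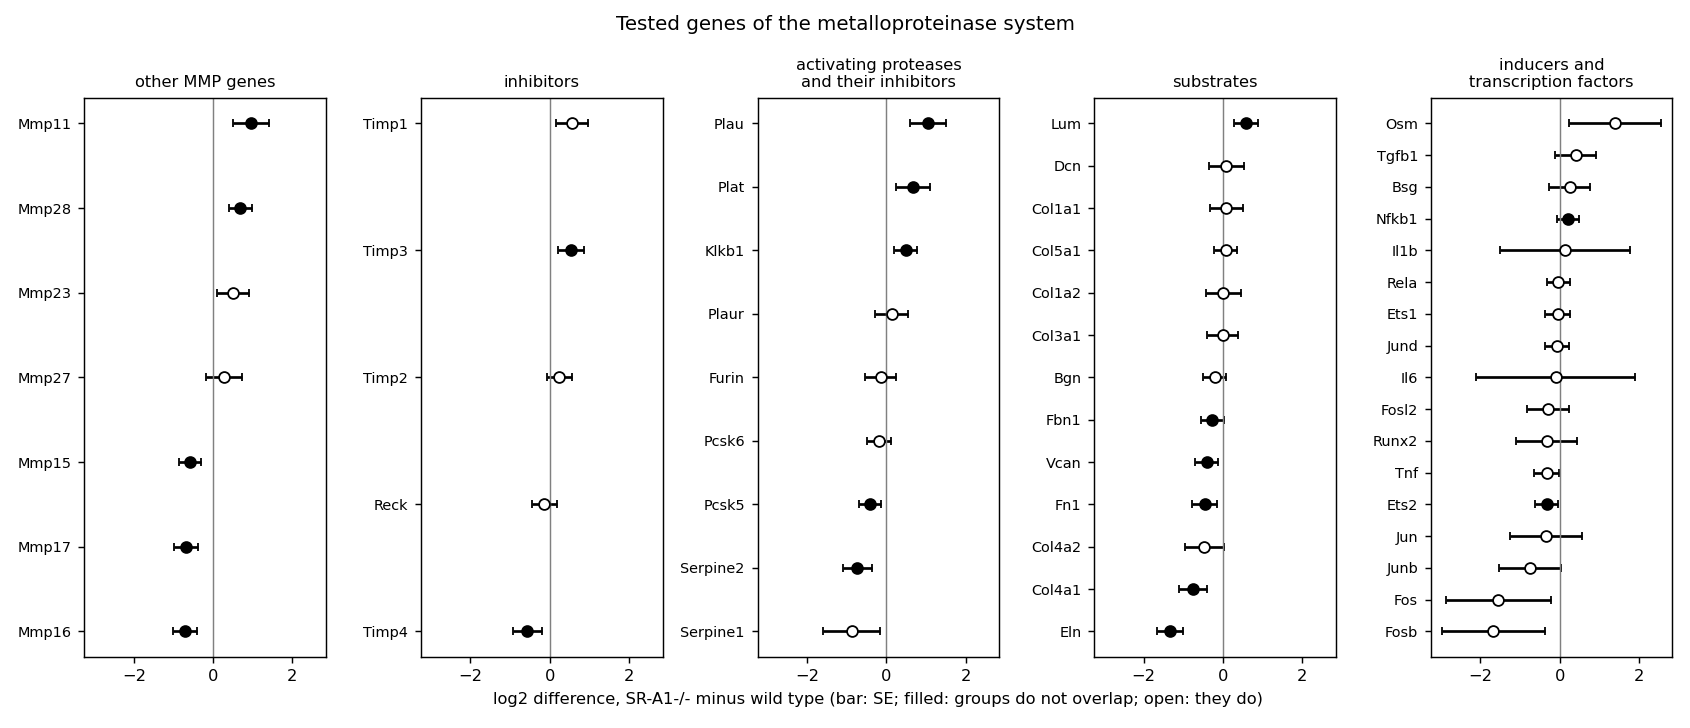
Log2 difference of the arrays labelled SR-A1-/- minus those labelled wild type (x axis) for the tested genes (rows) of the 5 lists of the protease system. Each gene has 1 point with a bar for its standard error, filled where the labels do not overlap and open where they do. Differences fall on both sides of 0 in every list, and the list medians, not drawn, lie between -0.21 and 0.28.

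Inducers and transcription factors of matrix metalloproteinase genes, 17 of 19 tested, had 1 higher and 1 lower without overlap and a median difference of -0.10. Of all tested genes, 16.1% were higher and 13.7% lower without overlap. The AP-1 subunit gene Fosb read -0.58 and 0.29 on the arrays labelled SR-A1-/-, against -0.43 and 3.48 on those labelled wild type. Fos read 2.23 and 3.501 on the arrays labelled SR-A1-/-, against 2.46 and 6.36 on those labelled wild type. Both were high on wild type 2, where Mmp12, with the AP-1 letters at the start printed above, was also highest. So was Mmp19, which had no promoter entry. Mmp3, which carries the same letters, was not highest there, and Mmp10 and Mmp13, which also carry them, were not tested. Mmp13 was well above background on wild type 2 alone, and Mmp10 on no array. Mmp12 was lowest on wild type 1, whereas Fos and Fosb were lowest on SR-A1-/- 1. The part of AP-1 in the values of the members was not tested. The cytokine gene Osm read -3.41 and -2.78 on the arrays labelled SR-A1-/-, against -6.25 and -2.73 on those labelled wild type. It was not well above background on wild type 1. No gene of the 5 lists passed an adjusted p of 0.05 with all 4 arrays. Without wild type 1, which leaves wild type 2 alone, Fos differed by -3.497 and Fosb by -3.62. Without wild type 2 the wild-type array left is that on which Osm was not well above background, so no difference is given.

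**Figure D5:**
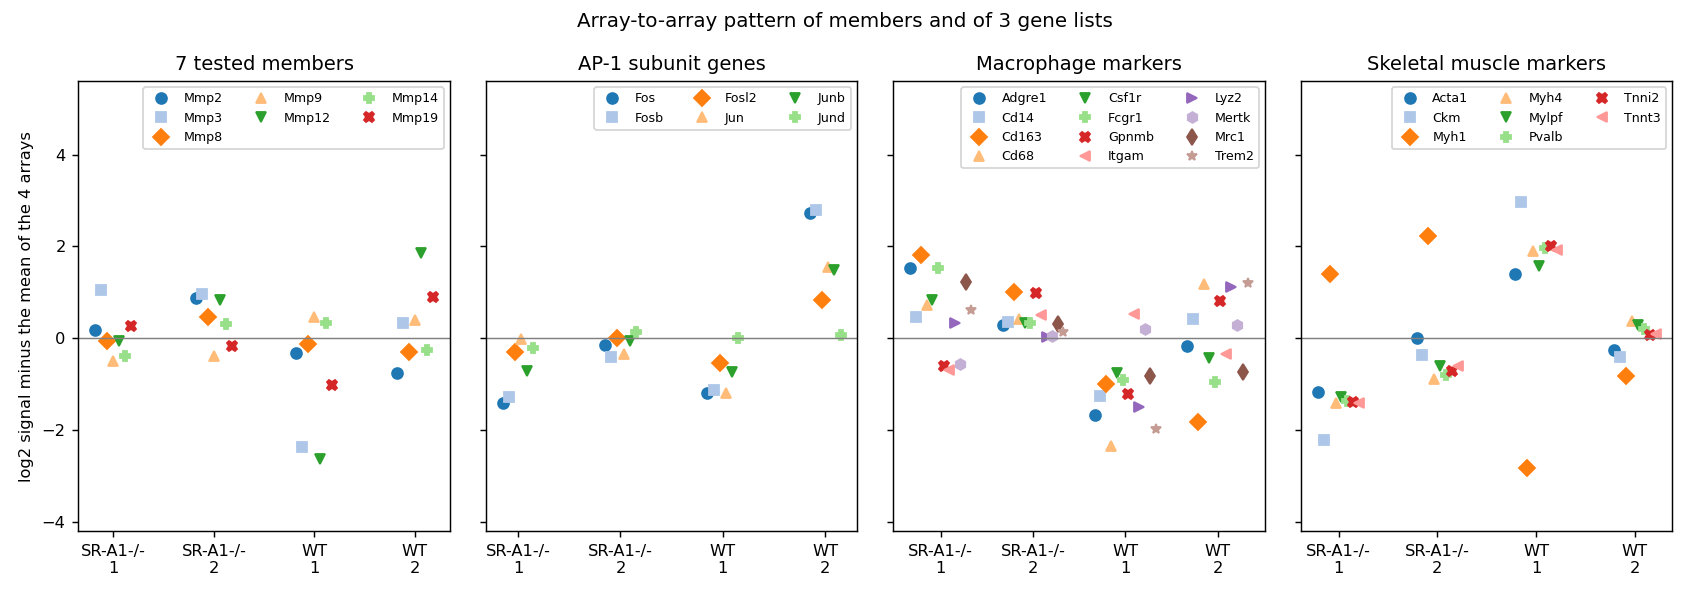
Log2 signal of each gene minus its mean over the 4 arrays (y axis), arrays labelled SR-A1-/- left of those labelled wild type (WT), for the 7 tested members and for tested AP-1 subunit genes, macrophage markers and skeletal muscle markers. Mmp12 is lowest on wild type 1 and highest on wild type 2, Fos and Fosb are highest on wild type 2, and most skeletal muscle markers are highest on wild type 1.

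The likeness of array profiles was measured as the root mean square distance between values centred on each gene's mean over the 4 arrays, in log2 units, against 22496 other tested genes. With 4 arrays the measure is a description only, and the genes share the same libraries. For Mmp12 the nearest were F10 (0.169), the coagulation factor X gene, Atp6v0d2 (0.270), a proton pump subunit of osteoclasts and macrophages, and AU022793 (0.299), and 1 gene lay within 0.25. For Mmp3 they were ENSMUST00000160802 (0.135), Ccna2 (0.166) and Top2a (0.198), the last 2 being genes of the cell cycle, and 10 genes lay within 0.25. For Mmp19 they were Slc5a12 (0.0722), LOC102636309 (0.0837) and Syngr1 (0.100), and 94 genes lay within 0.25. Among the members themselves the nearest pairs were Mmp8 with Mmp14 (0.291) and Mmp2 with Mmp8 (0.345). Mmp8 was well above background on neither wild-type array, and the nearest pair without it was Mmp9 with Mmp14 (0.494). AU022793, the 3 genes nearest Mmp3, Slc5a12 and LOC102636309 all read under -4.26 on wild type 1, the lowest value called above background there, so their low values are not measured levels. The neighbours Mmp3 and Mmp12 on chromosome 9 were not among each other's 3 nearest genes.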

How the data were processed

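One-colour Agilent arrays of 4 samples of mouse abdominal aorta were used, 2 labelled SR-A1-/- and 2 labelled wild type, from 1 slide and 1 scan. The authors' scanner output holds an intensity per spot. Per the file headers, Agilent Feature Extraction 12.0.3.1 subtracted background, detrended it and set surrogates for low values; the submitters' processing notes name version 10.7 and limma. Per the file headers, mean and background signals are raw intensity values. Flags of 0 or 1 per the file headers mark outlier, saturated and well-above-background spots. The authors' deposited table of processed values is in log2 units. Probe positions are on mm9.

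Values were log2 processed signal minus the 75th percentile of that array's non-control probes. Spots called outliers (102, 83, 93 and 74 on SR-A1-/- 1 and 2 and wild type 1 and 2) were left out, 0 spots were saturated, and spots of a probe were averaged. The filter kept 35102 probes well above background on 2 or more of 4 arrays, and the brightest probe of a name gave 22497 genes. The two-sided test of SR-A1-/- against wild type was that of limma 3.58.1 (lmFit, then eBayes, in R 4.3.3), adjusted over all tested genes after Benjamini and Hochberg. It recovered planted differences in simulated data of independent noise, which does not bear on the p-values here. Precision is limited by there being 2 arrays in each group. The members, lists and rule for named genes were chosen with earlier results of these data known. Named genes were the members, Msr1, the 3 genes of each pathway list with the smallest p, all inhibitors, the 2 markers of each cell list with the largest difference, and for 3 members with the largest range the 3 genes of nearest profile; not every such marker is printed. Alternatives were other scalings, normexp, other filters and probe choices, an intensity trend, signal level as a block, the deposited values and each array left out.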

Additional observations from a re-analysis of the deposited data

How the results depend on the processing

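With all 4 arrays, 0 members passed an adjusted p of 0.05 under any of the alternatives tried. Across all tested genes the count of 0 became 8 with quantile normalisation, 7 with median scaling, 21 with normexp, 8 without a filter, 5 with an intensity trend and 8 with the deposited values. It ran from 0 to 371 when an array was left out: 260 without wild type 1, 371 without wild type 2 and 0 without either SR-A1-/- array. Without wild type 2 the only wild-type array left is wild type 1, on which Mmp3 and Mmp12 read lowest of the 4 arrays. The cause of those low values was not tested.

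Members at least 2-fold higher without overlap numbered 2, and 1 to 3 when an array was left out. Members lower that far numbered 0, but 1 at a threshold of 1.5-fold and 1 with the mean of a gene's probes, Mmp9 in both, and 0 to 1 when an array was left out. Calls in the pathway lists, 0 with all arrays, then ran from 0 to 2. Without wild type 2, Osm and Msr1 were not well above background on the wild-type array left, so neither difference has a measured level behind it.

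Leaving out single arrays took Mmp12 from -1.47 to 3.002, Mmp14 from -0.43 to 0.28, Mmp19 from -0.85 to 1.08, Mmp3 from 0.67 to 3.37 and Msr1 from 0.42 to 3.63. Normexp turned Mmp8 to -0.040 and gave 0.24 for Mmp12 and -0.53 for Mmp9. With signal level as a block, limma adjusted p was 0.295 for Mmp2 and 0.307 for Mmp9. No paired analysis was possible because the labels number the arrays differently in the 2 groups.

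Mmp8, Mmp10 and Mmp13 are limited by signal near background. With 2 arrays per group, a miss of the threshold does not show that a member did not differ.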
